A study of Mus musculus with 2 samples.

Results

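Muscle satellite cells (MuSCs) were examined in single-cell RNA-seq libraries of live mononuclear cells from mouse limb muscle. A MuSC was chosen by its marker unique molecular identifiers (UMIs, counts of distinct captured transcripts): at least 1 UMI in at least 3 of Pax7, Myod1, Myf5, Asb5, Cdh15, Musk, Calcr and Fgfr4, and under 2 UMIs each of the leukocyte gene Ptprc, the endothelial gene Cdh5 and the fibro-adipogenic progenitor (FAP) gene Pdgfra. Of 10891 kept cells, 325 met the rule. They comprised 119 of 5437 cells from mice given the vehicle DMSO and 206 of 5454 cells from mice given Maraviroc (MVC), a small-molecule drug. Per the study's methods, the mice were aged C57BL/6 animals injected intraperitoneally, in its high-dose, short-term regime. Per the labels, red blood cells were lysed and live cells were sorted before capture. The labels give no dose, age or number of mice behind each library. Each group had 1 library, so the treatment and the library cannot be told apart, no test between the groups was possible, and all intervals below are 95% intervals that cover counting error only. The study asked whether MVC lowers senescence and inflammatory signalling in aged muscle.

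Satellite cells are the resident stem cells of skeletal muscle. They lie between the myofibre membrane and its basement membrane, where they rest in quiescence until injury drives them to divide, commit as myoblasts and fuse. Pax7 marks the stem cell state, Notch signalling and the calcitonin receptor Calcr hold cells in quiescence, and the factors Myf5, Myod1 and Myog act in succession from commitment to differentiation. Enzymatic digestion of muscle is known to induce stress and immediate early genes in these cells before they are captured.

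The summed MuSC transcriptomes held 986195 UMIs in the DMSO library and 1540128 UMIs in the MVC library. Median depth per MuSC was 7095 UMIs (DMSO) and 6692 UMIs (MVC), from 2315 and 2207 detected genes. Mitochondrial genes took a median of 2.51% and 2.59% of their UMIs. Levels are given as CPM, the UMIs of a gene divided by all UMIs of the MuSCs of that library and multiplied by 1000000. Of the cell barcodes, 9 occurred in both libraries, and 0 of these belonged to a MuSC.

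The label was checked on 9 satellite cell genes outside the rule (Vcam1, Itga7, Des, Sdc4, Chodl, Heyl, Sox8, Msc and Chrdl2). A MuSC held UMIs of a median of 5 of them in the DMSO and 4 in the MVC library, and the other kept cells held a median of 1. At least 3 were present in 92.4% of DMSO and 89.8% of MVC MuSCs, compared with 5.06% and 5.70% of the other kept cells. Chrdl2, which encodes a secreted BMP-binding protein, separated them most, with 276 and 149 CPM against 1.14 and 1.88 CPM in the other cells of the same libraries. Des, the intermediate filament protein of muscle, gave 487 and 341 CPM against 25.6 and 30.1 CPM. Vcam1, an adhesion molecule used to sort satellite cells, separated them least, with 319 and 521 CPM against 196 and 254 CPM, and other cells carried its transcript too.

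The genes that stood furthest above all other kept cells were led by the rule's own markers, which the rule fixes. Outside the rule came Bves, Nol4, Col19a1, Vgll2, Chrdl2 and Hs6st3. Hs6st3, a heparan sulfate 6-O-sulfotransferase, reached 1824 and 1856 CPM against 12.9 and 26.9 CPM in the other cells. Col19a1, a non-fibrillar collagen, reached 323 and 309 CPM against 1.88 and 3.53 CPM. Vgll2, a cofactor of TEAD transcription factors in muscle, reached 88.2 and 81.8 CPM against 1.11 and 0.471 CPM. Further down the same ranking stood secreted factors. Gal, the neuropeptide galanin, reached 787 and 567 CPM against 3.26 and 9.68 CPM. Erfe, a hormone that acts on iron metabolism, reached 596 and 438 CPM against 4.29 and 6.45 CPM. Nppc, the C-type natriuretic peptide precursor, reached 535 and 424 CPM against 7.60 and 10.8 CPM. Pax3, the paralogue of Pax7 retained by satellite cells of some muscles, was present at 53.7 and 48.0 CPM, in 14.3% of DMSO and 13.1% of MVC MuSCs. These ratios describe the chosen cells and were not tested.

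The members differed in how many rule markers they held. Exactly 3 markers were present in 29 DMSO and 53 MVC cells, 4 in 38 and 73, 5 in 30 and 41, 6 in 19 and 31, and 7 in 3 and 7 cells, and 1 MVC cell held all 8. Just outside the rule, 31 DMSO and 34 MVC cells had exactly 2 markers and passed the exclusion genes. Their median depth was 6372 and 4906 UMIs, compared with 6410 and 6270 UMIs for cells with exactly 3, and 58.1% and 64.7% of them held at least 3 of the 9 genes outside the rule. A further 4 DMSO and 16 MVC cells had at least 3 markers and failed on Ptprc, Cdh5 or Pdgfra.

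A few MuSCs stood apart from the rest. In the DMSO library 1 cell held 69122 UMIs, 7.01% of all MuSC UMIs of that library, while the next deepest held 22680. It carried all 97 UMIs of Myog, the factor of terminal differentiation, all 52 UMIs of the fusion gene Mymk and all 58 UMIs of its partner Mymx. It also carried 1078 of the 1083 UMIs of the sarcomeric giant protein gene Ttn and 328 of the 329 UMIs of the skeletal actin gene Acta1, and it held 31 Myod1 UMIs and 0 Pax7 UMIs. These are genes of differentiating myocytes, and the 206 MVC cells held 0 UMIs of Myog, Mymk and Mymx. Besides it, 3 DMSO and 7 MVC cells held over 1% of their UMIs in genes of other mononuclear cells (2.95 to 3.66% and 1.45 to 2.63%, at most 0.736% and 0.401% in the remaining MuSCs). Results are therefore also given without these 11 cells, which left 115 DMSO and 199 MVC cells.

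Genes that define other cell types were measured over all MuSCs. The lymphocyte list stood at 4.06 and 3.25 CPM in the DMSO and MVC libraries, with 5 of its 6 genes at 0 UMIs in both. The neutrophil list stood at 5.07 and 0 CPM and the macrophage list at 9.13 and 18.2 CPM. Haemoglobin genes, which satellite cells do not use, stood at 10.1 and 10.4 CPM, compared with 716 and 275 CPM over all kept cells. The FAP list was far higher, at 1347 and 1461 CPM, and 478 and 521 CPM without the 10 mixed cells. The smooth muscle list differed between the libraries, at 1025 and 141 CPM, and 288 and 147 CPM without the mixed cells. The Schwann cell list differed too, at 126 and 27.3 CPM, and 131 and 29.0 CPM without the mixed cells, with 87.9% and 88.1% of its UMIs in 3 cells of each library. The myofibre list, of which the deep DMSO cell held most UMIs, stood at 622 and 226 CPM. Their part in the results was not tested beyond the values without these cells.

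MuSCs made up 2.19% (1.82 to 2.61) of kept cells in the DMSO library and 3.78% (3.29 to 4.32) in the MVC library. The share was thus higher in the MVC library by 1.59 percentage points (0.952 to 2.23). A cell with more UMIs passes the rule more easily, so each kept cell was also thinned to 2000 UMIs before the rule was applied. The share was then 1.20% (60 of 4990 cells) and 2.24% (100 of 4473 cells), a difference of 1.03 points (0.511 to 1.58). Cells counted after a sort are not a census of the muscle, and a share also moves with every other cell type in the library.

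The MuSCs differed among themselves in which lineage factors they showed. Pax7, Myod1 and Myf5 are markers of the rule, so their shares describe the chosen cells and their intervals test nothing between the treatments. To compare detection at equal depth, each MuSC was thinned to 2000 UMIs, which left out 1 DMSO and 2 MVC cells. A Pax7 UMI was then present in 30.5% (22.4 to 39.7, 36 of 118) of DMSO MuSCs and 42.2% (35.3 to 49.3, 86 of 204) of MVC MuSCs. The share was higher in MVC MuSCs by 11.6 percentage points (0.656 to 21.9). Without thinning it was 62.2% and 68.9%, against 0.0970% and 0% of FAPs of the same libraries, which had median depths of 10651 and 10013 UMIs. FAPs were chosen to hold under 3 rule markers, so their shares of rule genes are partly set by that choice. Myod1, the commitment factor that digestion and activation induce, was present in 41.5% (32.5 to 51.0, 49 of 118) of DMSO MuSCs and 32.4% (26.0 to 39.2, 66 of 204) of MVC MuSCs. Its difference, -9.17 percentage points (-20.0 to 1.64), included 0, and the share in FAPs was 0.194% and 0%. Myf5, which marks cells primed for commitment, gave 15.3% and 17.6%, and its difference of 2.39 percentage points (-6.48 to 10.3) also included 0. No FAP of either library held a Myf5 UMI (0% and 0%).

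Taken jointly, Pax7 and Myod1 split the MuSCs into classes of unlike size in the libraries. Cells with Pax7 and no Myod1 UMI made up 16.1% (9.98 to 24.0, 19 of 118) of DMSO MuSCs and 34.3% (27.8 to 41.3, 70 of 204) of MVC MuSCs. Cells with both made up 14.4% (8.62 to 22.1, 17 of 118) and 7.84% (4.55 to 12.4, 16 of 204). Cells with Myod1 alone made up 27.1% (19.3 to 36.1, 32 of 118) and 24.5% (18.8 to 31.0, 50 of 204). At 2000 UMIs a gene can be expressed and missed, and 42.4% of DMSO and 33.3% of MVC cells showed neither. Both genes belong to the rule, so these shares are a description of the chosen cells, and their intervals test nothing between the treatments.

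**Figure D1:**
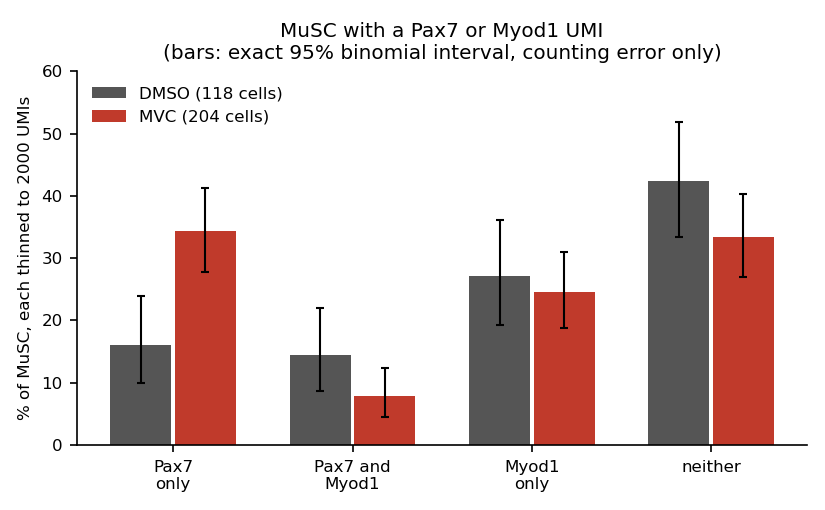
Percentage of MuSCs (vertical axis) with a UMI of Pax7 only, of both Pax7 and Myod1, of Myod1 only, or of neither, after each cell was thinned to 2000 UMIs. Grey bars are the 118 DMSO cells, red bars the 204 MVC cells, and error bars are exact binomial intervals. The Pax7-only class was 16.1% of DMSO and 34.3% of MVC cells.

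Cells of 1 library were next split by whether they held a UMI of Calcr, Pax7, Myod1 or Myf5, without the 11 cells that stood apart. These genes belong to the rule, so a cell without 1 of them held at least 3 other rule markers. The rule thus shapes the sides of each split, and the values describe the chosen cells. The genes below were picked, after their values were seen, from the 8 genes at each end of each split. Those 8 differed most in the same direction in both libraries, ranked by the library with the smaller difference, and no test was made. Not all are named, and for Calcr the genes Wdr95, Synpo2 and Mbd1 differed more than those given. Median depth differed little between the sides of a split (6845 and 7031 UMIs for DMSO cells with and without Calcr, 6395 and 6593 for MVC cells, and 7386 and 6621 for DMSO cells with and without Pax7). Calcr-positive MuSCs had more Foxp2, a forkhead transcription factor, at 329.5 against 143 CPM in the DMSO library and 452 against 201 CPM in the MVC library. They also had more Hip1, which encodes an adaptor of clathrin-coated vesicles, at 200.4 against 70.0 CPM in the DMSO library and 198 against 83.7 CPM in the MVC library. Arl4d, a small GTPase gene, was lower in them, at 169 against 358 CPM in the DMSO library and 180.3 against 404 CPM in the MVC library.

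Pax7-positive MuSCs carried more of the immediate early and heat shock transcripts. Fos, an AP-1 subunit, stood at 866 against 177 CPM in the DMSO library and 1724 against 243 CPM in the MVC library for cells with and without a Pax7 UMI. Gas1, a growth arrest gene, stood at 171 against 49.1 CPM in the DMSO library and 368 against 44.9 CPM in the MVC library. Epha4, an ephrin receptor, stood at 81.8 against 16.4 CPM in the DMSO library and 86.8 against 28.4 CPM in the MVC library. Without a Pax7 UMI, its level rested on 5 UMIs in 3 DMSO cells and 12 UMIs in 7 MVC cells. Of 25 immediate early genes, 18 were higher in the Pax7-positive cells of both libraries and 1 was lower, and of 16 heat shock genes 13 were higher and 2 were lower. Among all 2928 genes compared, 757 were higher in both libraries and 919 lower. A pair of chemokine genes went the other way, since Cxcl1 stood at 1507 against 2866 CPM in the DMSO library and 2115 against 5086 CPM in the MVC library, and Cxcl2 at 83.5 against 1035 CPM in the DMSO library and 256 against 893 CPM in the MVC library. Cxcl2 was found in few cells, 12 with and 11 without Pax7 in the DMSO library and 27 and 22 in the MVC library.

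Myod1-positive MuSCs carried more of the antioxidant transcripts under Nrf2. The haem oxygenase gene Hmox1 stood at 2621 against 1408 CPM in the DMSO library and 1170.0 against 657 CPM in the MVC library for cells with and without a Myod1 UMI. The glutathione synthesis gene Gclc stood at 264 against 141 CPM in the DMSO library and 191 against 82.8 CPM in the MVC library. Dlc1, Gfpt2, Prkg1, Cryab and Gal ranked above Gclc and Hmox1 among the genes higher in Myod1-positive cells. The median log2 ratio of the 10 Nrf2 target and ferritin genes was 0.62 in the DMSO and 0.55 in the MVC library, and 8 of the 10 were higher in both. Over all 2928 genes the medians were 0.00 in the DMSO and 0.04 in the MVC library, and 874 were higher in both. Dio2, which activates thyroid hormone and has been tied to quiescence, was lower, at 19.4 against 161 CPM in the DMSO library and 12.1 against 77.7 CPM in the MVC library. Few cells held it, with 10 UMIs in 5 cells against 57 UMIs in 7 cells in the DMSO library. In the MVC library it had 8 UMIs in 5 cells against 61 UMIs in 11 cells. In Myf5-positive cells the Nrf2 medians had the opposite sign, -0.43 in the DMSO and -0.38 in the MVC library, with 7 of 10 lower in both and 0 higher, where 886 of all 2928 genes were lower in both and 684 higher.

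Between the treatments, genes with at least 50 UMIs over the MuSCs of both libraries were compared by the ratio of CPM, MVC over DMSO. Of these, 8.69% of the 5926 genes were higher and 11.0% were lower by at least 1.5-fold, which is the background for each count of listed genes below. The median log2 ratio of all 5926 genes was -0.06. Without the 11 cells that stood apart, 545 of 5562 genes were higher (9.80%) and 552 lower (9.92%), and 392 of the 515 higher and 395 of the 649 lower genes passed 1.5-fold there too. Ratios are printed with exact conditional intervals in parentheses, and ratios named as without the cells apart leave out those 11 cells. The 12 highest and 12 lowest genes named below were taken among genes with at least 100 UMIs, outside the rule and predicted genes. At most 30% of their UMIs, in the library where they were higher, lay in 3 cells. Genes outside this choice could have more extreme ratios.

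The receptors and regulators of quiescence came first. Calcr (chr6:3685680-3764714, minus strand, GRCm38), whose product holds satellite cells in quiescence, stood at 88.2 CPM in the DMSO library and 207 CPM in the MVC library, a ratio of 2.35 (1.85 to 3.01). After thinning, Calcr UMIs were present in 10.2% (5.37 to 17.1, 12 of 118) of DMSO MuSCs and 20.1% (14.8 to 26.3, 41 of 204) of MVC MuSCs, a difference of 9.93 percentage points (1.56 to 17.3). Without thinning, the shares were 22.7% and 34.5% of MuSCs and 0.0970% and 0% of FAPs, which were chosen to hold under 3 rule markers. Pax7 (chr4:139737062-139833528, minus strand) stood at 194 CPM in the DMSO library and 321 CPM in the MVC library, a ratio of 1.66 (1.40 to 1.97). The remaining rule markers lay nearer to 1, from 0.896 for Myod1 to 1.37 for Asb5. All 8 genes chose the cells, so their ratios are a description of the chosen cells.

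Notch3, the Notch receptor of quiescent satellite cells, was among the 12 highest genes as defined above. It stood at 62.9 CPM in the DMSO library and 182 CPM in the MVC library (62 UMIs in 44 DMSO cells and 280 UMIs in 124 MVC cells), a ratio of 2.89 (2.19 to 3.87). After thinning it was seen in 12.7% (7.29 to 20.1, 15 of 118) of DMSO MuSCs and 27.0% (21.0 to 33.6, 55 of 204) of MVC MuSCs, and the interval of that difference, 14.2 percentage points (5.11 to 22.3), lay above 0. Without thinning, the shares were 37.0% and 60.2% of MuSCs and 5.33% and 6.40% of FAPs. Its target Hes1 gave 48.7 against 83.8 CPM, a ratio of 1.72 (1.23 to 2.45). The share of MuSCs with a Hes1 UMI was not higher, at 8.47% of DMSO and 8.33% of MVC MuSCs after thinning. That difference was -0.141 percentage points (-7.26 to 5.83). The ubiquitin ligase gene Dtx4 gave 38.5 against 68.2 CPM, a ratio of 1.77 (1.21 to 2.64). Heyl, another target, gave 33.5 against 46.7 CPM, a ratio of 1.40 (0.913 to 2.18), an interval that held 1. Notch1 and Rbpj, the receptor and the DNA-binding partner of the pathway, had ratios of 0.975 (0.737 to 1.30) and 0.793 (0.702 to 0.897). Of 10 measured Notch genes, 3 were higher by 1.5-fold, 0 were lower, and the median log2 ratio was 0.28.

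Among 20 measured quiescence genes, 5 were higher, 2 were lower and the median log2 ratio was 0.21. Besides Notch3 and Hes1, Gas1 was higher at 131 against 267 CPM, a ratio of 2.04 (1.67 to 2.51). Its share after thinning was 18.6% of DMSO and 22.5% of MVC MuSCs, a difference of 3.90 percentage points (-5.61 to 12.5) that included 0. The imprinted non-coding RNA Meg3 gave 681 against 1147 CPM, a ratio of 1.68 (1.54 to 1.84). Spry1, an inhibitor of receptor tyrosine kinase signalling, gave 73.0 against 115 CPM, a ratio of 1.57 (1.19 to 2.10). The lower genes were Chrdl2, at 276 CPM in the DMSO library and 149 CPM in the MVC library with a ratio of 0.541 (0.452 to 0.648), and Dio2, a ratio of 0.659 at 67.9 against 44.8 CPM in 12 and 16 cells. The list held genes on either side of 1. Without the cells apart the Spry1 log2 ratio was 0.58, just under the threshold of 0.58, the list median was 0.13, and with each kept cell thinned before the rule it was -0.02. Cells with at least 4 markers gave a Dio2 log2 ratio of 0.31, the opposite sign.

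Surface and adhesion genes gave 1 higher and 3 lower of 12. Vcam1 was higher, at 319 CPM in the DMSO library and 521 CPM in the MVC library, a ratio of 1.63 (1.43 to 1.87) and of 1.45 without the cells apart. Its share after thinning was 34.7% of DMSO and 42.2% of MVC MuSCs, a difference of 7.41 percentage points (-3.69 to 17.9) that included 0. The laminin receptor chain Itga7 was lower, at 118 against 54.5 CPM, a ratio of 0.464 (0.346 to 0.619). Its log2 ratio was -1.11, and -0.85 without the deep DMSO cell, and 3 cells held over 30% of its DMSO UMIs. The chemokine receptor Cxcr4 was lower too, at 39.5 against 18.2 CPM, a ratio of 0.460 (0.272 to 0.766). Ncam1, an adhesion molecule that rises with differentiation, gave 0.663 (0.594 to 0.739) and 0.816 without the cells apart. The deep DMSO cell held 160 of its 654 DMSO UMIs. Msc, which encodes the repressor musculin, was the other myogenic gene with a high ratio, at 32.4 CPM in the DMSO library and 92.2 CPM in the MVC library, a ratio of 2.84 (1.93 to 4.31). Its share after thinning was 5.93% of DMSO and 9.80% of MVC MuSCs, a difference of 3.87 percentage points (-2.84 to 9.59) that included 0. In the list of other myogenic genes, 5 of 13 were lower, all of them (Myog, Mymk, Mymx, Actc1 and Tnnt2) genes found in that single cell.

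**Figure D2:**
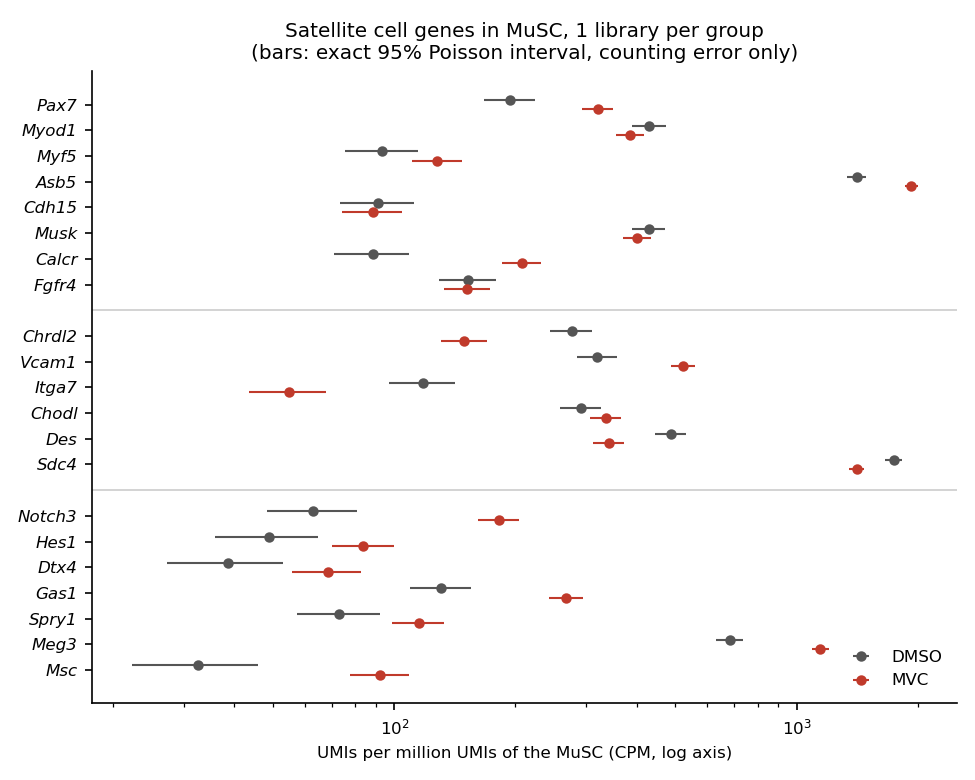
CPM (horizontal, log axis) of rule markers (top), other satellite cell genes (middle) and Notch and quiescence genes (bottom) in the summed MuSCs of the DMSO (grey) and MVC (red) library, with exact Poisson intervals. The level was higher in the MVC library for Calcr, Pax7, Notch3, Gas1 and Msc among others, and in the DMSO library for Chrdl2, Itga7, Des and Sdc4. The rule markers chose the cells, so their levels are a description, and the intervals cover counting error only.

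Cdkn1a (chr17:29090976-29100727, plus strand), which encodes the cell cycle inhibitor p21, was among the 12 lowest genes as defined above. It stood at 349 CPM in the DMSO library and 164 CPM in the MVC library (344 UMIs in 71 DMSO cells and 252 UMIs in 88 MVC cells), a ratio of 0.469 (0.397 to 0.553), lower in the MVC library. The deep DMSO cell held 64 of the 344 UMIs, and without the cells apart the ratio was 0.546. After thinning, a Cdkn1a UMI was present in 32.2% (23.9 to 41.4, 38 of 118) of DMSO MuSCs and 19.6% (14.4 to 25.7, 40 of 204) of MVC MuSCs, a difference of -12.6 percentage points (-22.7 to -2.80). Without thinning, the shares were 59.7% and 42.7% of MuSCs and 71.5% and 51.3% of FAPs, which express the gene too and had a ratio of 0.537, and in endothelial cells the ratio was 0.623.

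The Cdkn1a level was lower in the MVC library on both sides of each split, without the cells apart. The split genes belong to the rule, which shapes the sides, so these values describe the chosen cells. With a Calcr UMI it was 209 CPM in 27 DMSO cells and 99.0 CPM in 70 MVC cells, a ratio of 0.473 (0.311 to 0.720). Without one it was 331 CPM in 88 DMSO cells and 198 CPM in 129 MVC cells, a ratio of 0.598 (0.489 to 0.732). Calcr-positive cells thus had the lower level in each library. With a Pax7 UMI it was 289.7 CPM in 72 DMSO cells and 168 CPM in 139 MVC cells, a ratio of 0.579 (0.464 to 0.722), and without one 318 CPM in 43 DMSO cells and 154 CPM in 60 MVC cells, a ratio of 0.484 (0.348 to 0.669). Myod1-positive cells gave 323 CPM in 68 DMSO cells and 175 CPM in 92 MVC cells, a ratio of 0.542 (0.424 to 0.691). Myf5-positive cells differed least, at 231 CPM in 43 DMSO cells and 189 CPM in 75 MVC cells, a ratio of 0.818 (0.607 to 1.11), an interval that held 1, while Myf5-negative cells gave 343 CPM in 72 DMSO cells and 146 CPM in 124 MVC cells, a ratio of 0.426 (0.336 to 0.538).

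**Figure D3:**
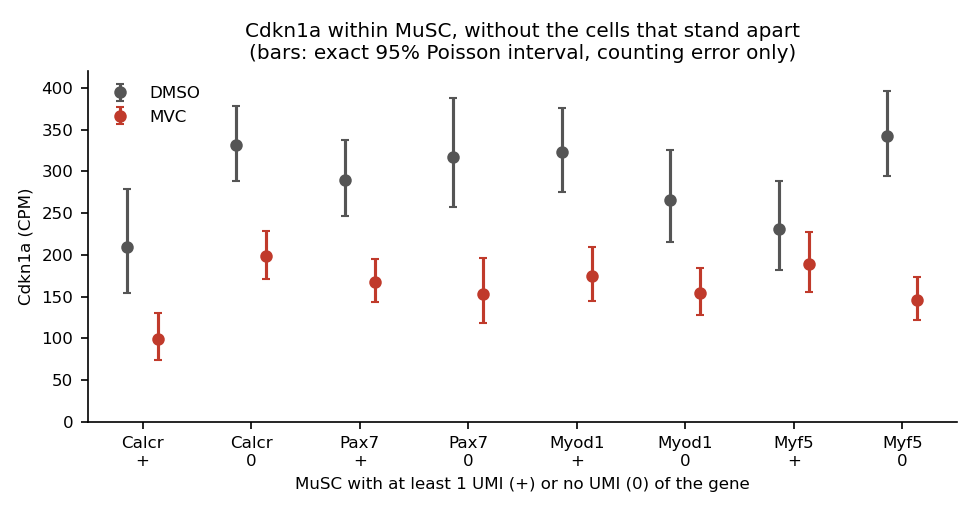
Cdkn1a level (CPM, vertical axis) in MuSCs with (+) or without (0) a UMI of Calcr, Pax7, Myod1 or Myf5, in the DMSO (grey) and MVC (red) library, without the 11 cells that stood apart. Bars are exact Poisson intervals. The MVC level was lower in all 8 strata, least so in Myf5-positive cells (231 and 189 CPM).

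Other inhibitors of cyclin-dependent kinases were sparse. Cdkn2a, the p16 and p19Arf gene read as a senescence marker, had 3 UMIs in 1 DMSO cell and 3 UMIs in 3 MVC cells, too few to compare. Cdkn1b, p27, gave 57.8 against 50.6 CPM, a ratio of 0.876 (0.615 to 1.26). Cdkn1c, p57, gave 17.2 against 30.5 CPM, a ratio of 1.77 (0.998 to 3.29) and of 1.33 without the cells apart. Of 14 measured p53 targets 1 was higher and 1 lower. The death receptor gene Fas was higher, at 199 CPM in the DMSO library and 365 CPM in the MVC library, a ratio of 1.84 (1.56 to 2.17), and Trp53inp1 was lower, at 35.5 against 20.1 CPM, a ratio of 0.567 (0.338 to 0.947). Mdm2, the p53 ubiquitin ligase, gave 0.837 (0.617 to 1.14). Proliferation transcripts were nearly absent, Mki67 having 0 UMIs in DMSO cells and 3 UMIs in 3 MVC cells and Top2a having 0 UMIs in DMSO cells and 2 UMIs in 1 MVC cell. Pcna, the sliding clamp of DNA replication, gave 69.0 against 44.2 CPM, a ratio of 0.640 (0.451 to 0.910).

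Heat shock genes leaned higher in the MVC library. All 17 were measured, 11 were higher in the MVC library, 0 were lower, and the median log2 ratio was 0.66. The chaperone cofactor Dnajb1 stood at 607 CPM in the DMSO library and 1543 CPM in the MVC library, a ratio of 2.54 (2.32 to 2.78). Its share after thinning was 40.7% of DMSO and 49.5% of MVC MuSCs, a difference of 8.83 percentage points (-2.46 to 19.7) that included 0. The mitochondrial chaperonin pair Hspd1 and Hspe1 gave 644 against 1546 CPM, a ratio of 2.40 (2.20 to 2.62) and 919.7 against 1932 CPM, a ratio of 2.10 (1.95 to 2.26). The co-chaperone Bag3 gave 789 against 1652 CPM, a ratio of 2.09 (1.93 to 2.27), and the small heat shock protein gene Hspb1 gave 2463 against 4855 CPM, a ratio of 1.97 (1.88 to 2.06). The inducible Hsp70 genes Hspa1a and Hspa1b, which are near-identical copies and whose reads may be shared, gave 1.69 and 1.52. Hspa5, the chaperone of the endoplasmic reticulum, lay below 1, at 0.762 (0.722 to 0.803). Without the cells apart 9 of the 17 were higher, with a median of 0.63. There Hspa1b, Dnaja1 and Chordc1 were just under the threshold, at 1.42, 1.49 and 1.48. Hspb8 passed it there, at 1.65, since 29 of its 52 DMSO UMIs had come from 1 cell.

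The upstream sequence of these genes was read from RefSeq (GRCm38.p6). A core heat shock element, GAANNTTC or TTCNNGAA on either strand (each form is its own reverse complement), was searched in windows from 250 bases before to 50 bases after the gene start. It was present in 11 of 14 heat shock genes with a window and in 17.0% of the 27025 genes with one. Dnajb1, Hspa5 and Hspa4l had no match, and Hspa8, Hsp90aa1 and Hsp90ab1 had no window. For Hspb1 and Dnajb4, up to 150 bases before the start are shown, outside annotated exons, with matches in capitals. Dnajb4 itself gave 196 against 266 CPM, a ratio of 1.36 (1.14 to 1.62).
Hspb1 (chr5:135887769-135887918, plus strand): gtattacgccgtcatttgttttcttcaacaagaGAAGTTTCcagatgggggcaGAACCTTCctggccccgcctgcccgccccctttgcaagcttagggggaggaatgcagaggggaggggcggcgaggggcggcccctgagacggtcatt
Dnajb4 (chr3:152193846-152193995, minus strand): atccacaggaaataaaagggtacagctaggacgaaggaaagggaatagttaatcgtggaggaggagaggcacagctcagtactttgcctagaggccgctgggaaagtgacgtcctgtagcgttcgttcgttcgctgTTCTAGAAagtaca
In Hspb1 a pair of matches (GAAGTTTC and GAACCTTC) began 117 and 97 bases before the start, and in Dnajb4 a TTCTAGAA began 14 bases before it. A match describes the letters only and shows neither binding nor cause.

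Immediate early genes, which serum, growth factors and digestion induce within minutes, were partly higher. Of 30 measured, 11 were higher by 1.5-fold, 0 were lower and the median log2 ratio was 0.24. Fos stood at 564 CPM in the DMSO library and 1291 CPM in the MVC library, a ratio of 2.29 (2.08 to 2.52). Fos UMIs were present after thinning in 30.5% of DMSO and 42.6% of MVC MuSCs, a difference of 12.1 percentage points (1.13 to 22.4). Its partner Jun gave 977 against 1957 CPM, a ratio of 2.0 (1.86 to 2.15), and the zinc finger factor Egr1 gave 1657 against 3348 CPM, a ratio of 2.02 (1.91 to 2.14). Ccn1, a matricellular target of YAP, gave 125 against 301 CPM, a ratio of 2.42 (1.98 to 2.97). Its relative Ccn2 gave 10 UMIs in 4 DMSO cells and 158 UMIs in 24 MVC cells, a ratio of 10.1 (5.36 to 21.5), and 48 of the 158 MVC UMIs came from 1 cell. In contrast, Fosl1, Ier2, Klf4 and Myc lay between 0.959 and 1.07. Without the deep DMSO cell alone, the list median was 0.14.

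Chemokines that attract neutrophils were transcribed by MuSCs of both libraries. Cxcl1 stood at 2062 CPM in the DMSO library and 3027 CPM in the MVC library (2034 UMIs in 81 DMSO cells and 4662 UMIs in 156 MVC cells), a ratio of 1.47 (1.39 to 1.55), just under the threshold. Cxcl2 gave 473 against 459.7 CPM, a ratio of 0.973 (0.864 to 1.10) that held 1. Cxcl3 gave 23.3 against 162 CPM (23 UMIs in 4 DMSO cells and 249 UMIs in 22 MVC cells), a ratio of 6.93 (4.52 to 11.1), with 82 of the MVC UMIs in a single cell. Cxcl5 gave 64.9 against 93.5 CPM in 4 and 22 cells, a ratio of 1.44 (1.07 to 1.97) and of 2.68 without the cells apart. Of the 4 measured genes 1 was higher and 0 lower, with a median log2 ratio of 0.54, which ranged from 0.17 to 1.94 over other choices of cells. With the cells apart left out, 3 of the 4 were higher, 0 lower, and the median was 1.0. Cxcl1 was the most widespread member, Cxcl2 was found in 24 DMSO and 50 MVC cells, and Cxcl3 and Cxcl5 were each found in 4 and 22 cells.

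Cxcl1, Cxcl2 and Cxcl3 are neighbours on chromosome 5, and their upstream sequences share a kB element, the binding motif of NF-kB. The letters GGAATTTCC (or GGAAATTCC on the other strand) were present in the windows of 3 of 4 neutrophil-attracting chemokine genes that had one (all but Ppbp), of 3 of 16 NF-kB genes (Nfkbia, Tnfaip3 and Icam1), and of 0.381% of all genes. The stretches before the starts are shown as for the heat shock genes, trimmed at annotated exons.
Cxcl1 (chr5:90891095-90891240, plus strand): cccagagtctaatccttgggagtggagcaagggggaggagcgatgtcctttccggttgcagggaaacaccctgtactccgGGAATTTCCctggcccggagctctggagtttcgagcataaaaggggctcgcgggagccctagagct
Cxcl2 (chr5:90903749-90903870, plus strand): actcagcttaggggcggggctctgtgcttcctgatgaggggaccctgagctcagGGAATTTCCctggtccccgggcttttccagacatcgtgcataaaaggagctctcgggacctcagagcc
Cxcl3 (chr5:90785951-90786100, plus strand): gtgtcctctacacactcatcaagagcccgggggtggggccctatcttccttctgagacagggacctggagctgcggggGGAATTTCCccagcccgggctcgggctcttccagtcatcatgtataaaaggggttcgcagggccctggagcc
The match began 70, 96 and 72 bases before the start, in the order shown. The genes that carry these letters had unlike ratios, 1.47, 0.973 and 6.93.

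The other inflammatory genes were mixed. CC chemokines of leukocytes were sparse, as Ccl3 had 1 UMI in 1 DMSO cell and 1 UMI in 1 MVC cell, Ccl4 had 0 UMIs in DMSO cells and 7 UMIs in 6 MVC cells and Ccl5 had 6 UMIs in 4 DMSO cells and 8 UMIs in 6 MVC cells. Ccl2, a monocyte attractant, gave 338 against 479 CPM, a ratio of 1.42 (1.24 to 1.62). The interferon-induced Cxcl10 gave 14.2 against 50.6 CPM in 8 and 19 cells, a ratio of 3.57 (2.0 to 6.83). Il6, a cytokine of the secretory phenotype, gave 0.470 (0.355 to 0.621), but 63 of its 124 DMSO UMIs came from 1 cell, and without the cells apart the ratio was 1.43, on the other side of 1.

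NF-kB and its feedback genes gave 5 higher and 1 lower of 17, with a median log2 ratio of 0.22. The feedback inhibitor Tnfaip3 was among the 12 highest genes, at 45.6 CPM in the DMSO library and 132 CPM in the MVC library, a ratio of 2.90 (2.09 to 4.10). Birc3, an inhibitor of apoptosis, gave 228 against 393 CPM, a ratio of 1.72 (1.48 to 2.02), and the subunits Rel and Relb gave 1.75 (1.32 to 2.35) and 1.52 (1.26 to 1.83). The adhesion gene Icam1 gave 1.74 (1.18 to 2.63) and 1.42 without the cells apart. The subunits Nfkb1 and Rela and the inhibitor Nfkbia lay between 1.0 and 1.13. The lower gene, Ptgs2, had UMIs in 5 and 7 cells, and its log2 ratio turned to 1.78 under a stricter filter (1000 genes, 5% mitochondrial UMIs). With the cells apart left out, 3 of 16 genes were higher and 0 lower, and Relb was just under the threshold, at 1.49.

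The study's classical list of secretory phenotype genes showed no common direction. Of 33 measured members, 7 were higher, 9 were lower and the median log2 ratio was -0.04, near that of all genes. The neurotrophin gene Ntf3 gave 17.2 against 67.5 CPM, a ratio of 3.92 (2.33 to 6.98), with over 30% of its MVC UMIs in 3 cells. Gdnf, a neurotrophic factor, gave 76.0 against 158 CPM, a ratio of 2.08 (1.60 to 2.74). Btc, a ligand of the EGF receptor, had 0 DMSO UMIs and 92 MVC UMIs in 5 cells, 78 of them in a single cell, at least 19.6-fold higher against a floor of 3 counts. Vegfa, the angiogenic factor, was among the 12 lowest genes, at 193 CPM in the DMSO library and 89.6 CPM in the MVC library, a ratio of 0.465 (0.371 to 0.582). Without the cells apart, 9 of 29 were higher and 7 lower, and the median was 0.10.

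Proteases and their inhibitors leaned lower, with 8 of 17 lower by 1.5-fold, 0 higher and a median log2 ratio of -0.50. Mmp14, the membrane-bound collagenase, gave 46.6 against 22.1 CPM, a ratio of 0.473 (0.295 to 0.754). The urokinase receptor gene Plaur gave 124 against 66.2 CPM, a ratio of 0.535 (0.407 to 0.702), and the plasminogen activator gene Plat gave 128 against 70.8 CPM, a ratio of 0.554 (0.425 to 0.722). The lysosomal cathepsins Ctsl and Ctsd gave 0.620 (0.543 to 0.707) and 0.496 (0.333 to 0.734). Mmp2, a gelatinase, gave 89.2 against 51.3 CPM, a ratio of 0.575 (0.419 to 0.788). Adamts4 gave 0.560 (0.434 to 0.722), and 0.813 without the cells apart, which ended its call. Without the cells apart 9 of the 17 were lower, and the median was -0.59. The inhibitor Timp3 gave 1.40 (1.22 to 1.62).

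Matrix genes leaned the other way. Of 21 measured, 5 were higher, 1 was lower and the median log2 ratio was 0.25. Col15a1, a basement membrane collagen, had the highest ratio of the 12 highest genes, at 12.2 CPM in the DMSO library and 63.0 CPM in the MVC library (12 UMIs in 10 DMSO cells and 97 UMIs in 53 MVC cells), a ratio of 5.18 (2.83 to 10.4). Col3a1, a fibrillar collagen that FAPs make in abundance, gave 89.2 against 438 CPM, a ratio of 4.90 (3.92 to 6.20), with 189 of 674 MVC UMIs in 1 cell. Col6a1, a chain of the microfibrillar collagen of the satellite cell niche, gave 30.4 against 75.3 CPM, a ratio of 2.48 (1.65 to 3.83) and had at most 6 UMIs in any cell. The laminin chain genes Lama2 and Lamc1 were near 1, at 0.996 (0.90 to 1.10) and 0.998 (0.855 to 1.17). The FAP list in the same MuSCs stood at 1347 and 1461 CPM, and FAPs had a Col3a1 ratio of 2.15 and a Col6a1 ratio of 1.85. The part of FAP transcripts in these values was not tested, and without the cells apart Col3a1 gave 5.89 and Col6a1 2.40.

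**Figure D4:**
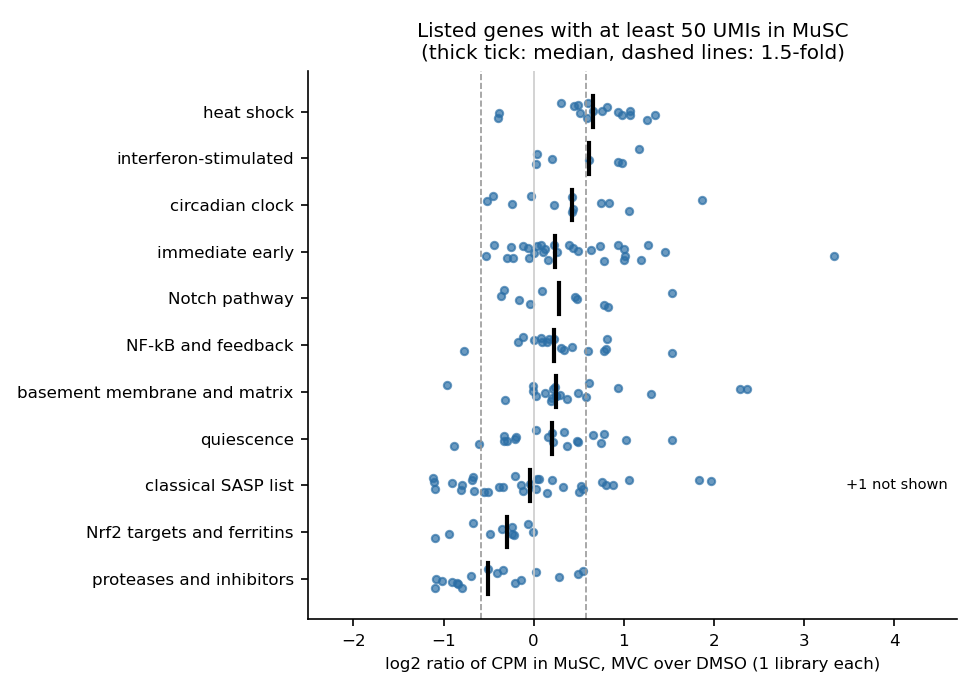
Log2 ratio of CPM, MVC over DMSO (horizontal axis), of each gene with at least 50 UMIs in the summed MuSCs, by gene list (rows), with the list median as a thick tick and 1.5-fold as dashed lines. Of the 11 lists drawn, heat shock genes have the highest median (0.66) and proteases the lowest (-0.50). Btc, with 0 DMSO UMIs, has no finite ratio and is left out.

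Growth factors and receptors lay on both sides of 1. Tgfb2, a TGF-beta ligand, gave 117 against 226 CPM, a ratio of 1.94 (1.57 to 2.41), and Bmp4 gave 77.1 against 131 CPM, a ratio of 1.69 (1.29 to 2.24). The receptor gene Tgfbr2 was lower, at 91.3 against 53.2 CPM, a ratio of 0.583 (0.427 to 0.796). Id1, a target of BMP signalling, was lower at 82.1 against 26.0 CPM, a ratio of 0.316 (0.211 to 0.467), while Id3 gave 0.880 (0.799 to 0.969). In the DMSO library, 3 cells held over 30% of the Id1 UMIs. Ifngr1, a chain of the interferon gamma receptor, was higher, at 15 UMIs in 15 DMSO cells and 80 UMIs in 59 MVC cells and a ratio of 3.42 (1.95 to 6.38). Igfbp5 and Igfbp7, which bind insulin-like growth factors, parted, at 1.65 (1.41 to 1.93) and 0.421 (0.318 to 0.554). Over 30% of the Igfbp7 UMIs of the DMSO library also lay in 3 cells. Edn3, an endothelin that was also among the genes furthest above other kept cells, was among the 12 highest genes, at 23.3 against 77.9 CPM, a ratio of 3.34 (2.13 to 5.47).

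Iron, redox and metal-response genes were lower or near 1. Of 10 measured Nrf2 targets and ferritins, 3 were lower, 0 were higher and the median log2 ratio was -0.29. Hmox1, among the 12 lowest genes, stood at 2022 CPM in the DMSO library and 944 CPM in the MVC library, a ratio of 0.467 (0.436 to 0.50). The ferritin heavy chain gene Fth1 gave 3323 against 1729 CPM, a ratio of 0.520 (0.494 to 0.548), and the light chain gene Ftl1 gave 0.956 (0.881 to 1.04). The metallothionein genes Mt1 and Mt2 gave 5618 against 3428 CPM, a ratio of 0.610 (0.587 to 0.634) and 5108 against 3294 CPM, a ratio of 0.645 (0.620 to 0.671). Ddit4, a stress-induced inhibitor of mTORC1, gave 62.9 against 22.7 CPM, a ratio of 0.361 (0.232 to 0.556). FAPs of the same libraries had ratios of 0.484 for Hmox1, 0.621 for Fth1 and 0.607 for Mt1, while endothelial cells had 0.661, 0.862 and 1.16.

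Clock output genes were higher, and no label gives the hour of collection. Dbp, a clock-driven transcription factor, had 0 DMSO UMIs and 38 MVC UMIs in 32 cells, at least 8.11-fold higher against a floor of 3 counts. Its relative Tef gave 10.1 against 37.0 CPM, a ratio of 3.65 (1.85 to 8.02), the repressor Nr1d2 gave 83.1 against 148 CPM, a ratio of 1.78 (1.38 to 2.32), and Per2 gave 16.2 against 33.8 CPM, a ratio of 2.08 (1.17 to 3.90). The activators Arntl and Clock lay below 1, at 0.730 (0.579 to 0.920) and 0.70 (0.557 to 0.881). In all, 4 of 12 measured clock genes were higher and 0 lower. In FAPs and endothelial cells, Dbp had ratios of 5.17 and 5.80, and Tef 2.04 and 3.30.

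Interferon and antigen presentation genes were sparse in MuSCs. Only 7 of 24 interferon-stimulated genes were measured, of which 4 were higher and 0 lower. Parp14 gave 23.3 against 52.6 CPM, a ratio of 2.26 (1.40 to 3.76), Stat2 gave 23.3 against 46.1 CPM, a ratio of 1.98 (1.22 to 3.32) and Irf1 gave 59.8 against 91.6 CPM, a ratio of 1.53 (1.12 to 2.11). Gbp5, an interferon-induced GTPase gene, was among the 12 highest genes, at 19.3 against 57.1 CPM, a ratio of 2.97 (1.79 to 5.16). The class I genes H2-K1 and H2-D1, whose reads may be shared with relatives, and B2m had ratios of 1.12, 1.18 and 1.06.

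The respiratory chain list turned on the cells apart. Over all MuSCs 19 of 77 genes were lower, 0 were higher and the median log2 ratio was -0.41. Without the cells apart 4 of 72 were lower, 7 higher, and the median was 0.04. Ribosomal protein genes hardly moved, with 1 of 81 higher, 0 lower and a median of 0.04. The 15 genes of polyamine and translation start were all within 1.5-fold, with a median of -0.33.

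The remaining genes at the extremes belong to no list. Amotl2, an angiomotin family gene, gave 21.3 against 75.3 CPM, a ratio of 3.54 (2.21 to 5.93). Hmcn1, a hemicentin, gave 16.2 against 56.5 CPM, a ratio of 3.48 (2.03 to 6.36). Prkcq, protein kinase C theta, gave 25.3 against 72.7 CPM, a ratio of 2.87 (1.85 to 4.62). Calcrl, the receptor of CGRP and adrenomedullin and no member of the rule, gave 136 against 388 CPM, a ratio of 2.85 (2.36 to 3.47). Alpk1, a kinase that senses bacterial sugars, and Steap4, a metalloreductase, completed the 12 highest with ratios of 2.86 (2.15 to 3.85) and 2.85 (2.17 to 3.79). Among the 12 lowest was Nnmt, nicotinamide N-methyltransferase, at 84.2 CPM in the DMSO library and 20.8 CPM in the MVC library, a ratio of 0.247 (0.159 to 0.375). Clcf1, a cytokine of the IL-6 family, gave 216 against 101 CPM, a ratio of 0.466 (0.376 to 0.576). C1galt1, a glycosyltransferase, gave 0.434 (0.286 to 0.652), and D10Wsu102e, Rabepk and Micall1 lay between 0.476 and 0.491. Rpl9-ps6, Rps27rt and Wdr89 were lower in all 3 populations (0.311, 0.346 and 0.278 in MuSCs and 0.336, 0.307 and 0.315 in FAPs and 0.422, 0.359 and 0.404 in endothelial cells). Their reads may be shared with near-identical copies, and their values are uncertain.

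MuSCs were set beside FAPs (1031 DMSO and 1157 MVC cells) and endothelial cells (2048 and 1650 cells), chosen by similar marker rules in the same libraries. In FAPs 10.8% of 12499 genes were higher and 3.54% lower by 1.5-fold, and in endothelial cells 10.7% of 12084 were higher and 3.88% lower. The heat shock medians were 0.66 in MuSCs, 0.30 in FAPs and 0.16 in endothelial cells, where 0 of 17 genes passed 1.5-fold in either. Immediate early medians were 0.24, -0.21 and -0.04. For Fos the ratios were 2.29 in MuSCs, 1.03 in FAPs and 1.22 in endothelial cells, and for Dnajb1 2.54, 1.14 and 1.13. Notch3 gave 2.89, 0.932 and 1.51, and Tnfaip3 gave 2.90, 1.16 and 1.02. Protease medians were -0.50, -0.13 and -0.12, while clock medians were 0.43, 0.14 and 0.73. Matrix medians were 0.25, 0.50 and 0.18, so the lean of these genes was larger in FAPs than in MuSCs. Interferon-stimulated medians were 0.61, 0.29 and 0.84, the largest in endothelial cells. These values stand side by side, because with 1 library a group the difference between cell types could not be tested.

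**Figure D5:**
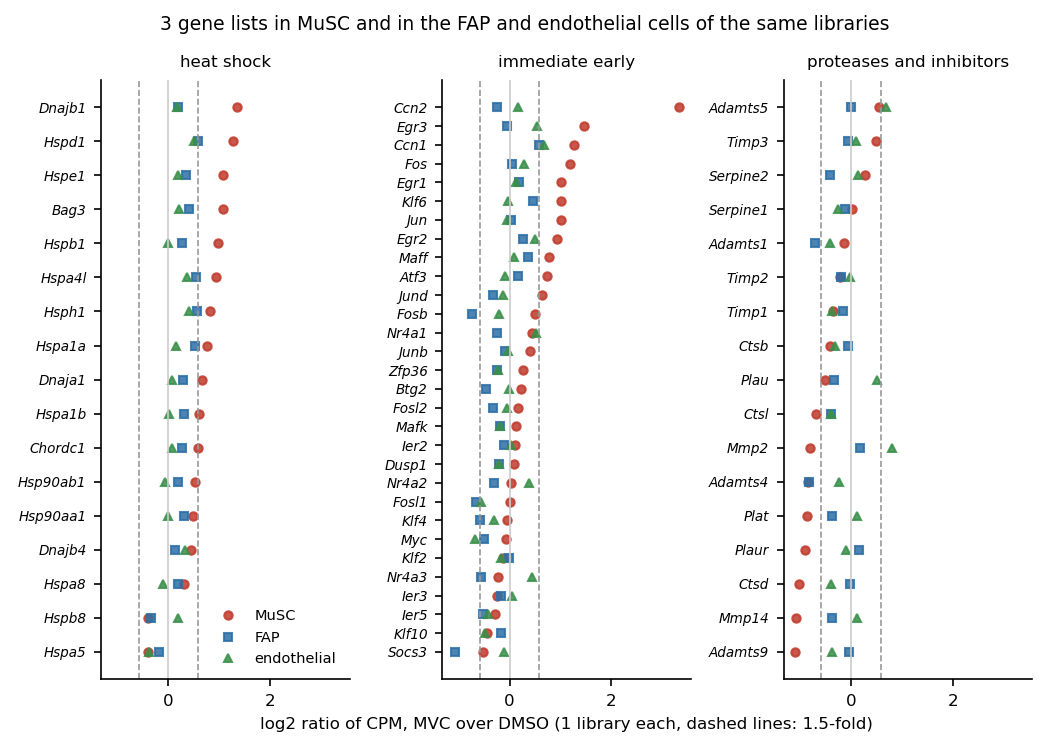
Log2 ratio of CPM, MVC over DMSO (horizontal axis), of heat shock genes, immediate early genes and proteases with their inhibitors, in MuSCs (red circles), FAPs (blue squares) and endothelial cells (green triangles). Genes are ordered by the MuSC ratio, and dashed lines mark 1.5-fold. The MuSC points of Dnajb1, Hspd1, Fos and Egr1 lie to the right of both other populations (Dnajb1 ratios 2.54, 1.14 and 1.13).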

How the data were processed

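Limb muscle mononuclear cells were profiled with 10x Genomics droplet chemistry. The authors deposited filtered gene by cell matrices of raw UMI counts, 1 for each group, with 5812 and 6047 barcodes holding 39150511 and 36063575 UMIs. The submitters' processing notes name Cell Ranger 7.0.0, Seurat 5.0.1 and mm10, with no role stated. Positions came from a GENCODE M21 annotation of GRCm38 (32158 of 32285 gene IDs found), and upstream sequences from RefSeq.

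A cell was kept from 500 detected genes upward if mitochondrial UMIs did not exceed 10%, which left 5437 and 5454 cells, with a median of 5802 and 5195 UMIs. No doublet caller was run and free RNA was not removed. MuSC UMIs were summed by library and scaled to CPM. Genes with at least 50 UMIs were compared by their ratio, and called past 1.5-fold. Intervals are exact Poisson (levels), exact conditional (ratios), Clopper-Pearson (shares) and Newcombe (differences). They cover counting error only. The floor for 0 was 3 counts. FAPs and endothelial cells needed at least 2 UMIs in at least 3 of their markers, and at least 1 UMI of Pdgfra or Cdh5, respectively. They needed under 2 UMIs of each exclusion gene, Ptprc and Cdh5 for FAPs and Ptprc and Pdgfra for endothelial cells. Cells with at least 3 MuSC rule markers were left out of both. Levels within the members were compared after adding 10 CPM. The code was tested on simulated data. Python 3.11.15, numpy 2.4.6, scipy 1.17.1, pandas 2.3.3 and matplotlib 3.10.9 were used.

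Named genes are members of lists, the 12 highest and 12 lowest ratios, and the 15 genes furthest above other kept cells. Genes at either end had at least 100 UMIs, at most 30% of them in 3 cells, and belonged to neither the rule nor predicted genes. Members, lists and rules were chosen with earlier results of these data known. Alternatives changed the marker rule, cell filter, depth, scaling, UMI minimum and fold. Symbols with more than 1 gene ID were left out. Some listed items are not reported here.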

Additional observations from a re-analysis of the deposited data

Results flagged for a closer look

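Cells that fit the marker rule also occurred among barcodes that the comparisons did not use. Of 593 barcodes removed by the filter in the MVC library, 4 passed the marker rule, compared with 1 of 375 in the DMSO library, and whether these counts differ was not tested.

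Some genes had ratios past 1.5-fold in opposite directions in MuSCs and in another population of the same libraries. The difference in log2 ratio was 1.5 for Bmp4, -2.72 for Dio2, -1.82 for Igfbp6 and -1.61 for Mmp2 between MuSCs and endothelial cells, and -1.57 for Hgf between MuSCs and FAPs. With 1 library a group these differences were not tested. In cells with at least 4 rule markers the MuSC log2 ratios of Dio2 and Igfbp6 turned to 0.31 and 0.41, so that these opposite directions did not hold there.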

How the results depend on the processing

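The higher MuSC share in the MVC library (1.03 to 2.12 percentage points) and the lower Cdkn1a level (log2 ratio -1.21 to -0.87) kept their direction in every setting tried. The Calcr and Myod1 share differences did too, but both genes belong to the rule, so this only describes the chosen cells. The main interval of the Myod1 difference (-20.0 to 1.64 percentage points) included 0. The counts of genes higher and lower by 1.5-fold, 515 and 649, were 127 and 174 with kept cells thinned before the rule, 1100 and 1313 at a minimum of 20 UMIs, 264 and 324 at 100 UMIs, 341 and 419 with 10 CPM added, and 177 and 174 at 2-fold. The immediate early median (0.24) was 0.41 with at least 4 markers, 0.48 thinned and 0.14 without the cell of most UMIs. The neutrophil-attracting chemokine median (0.54) was 1.94 with at least 4 markers, 0.17 with 0 exclusion UMIs, 0.97 without cells above 3 times the median UMIs, 1.0 thinned, 0.44 without the cell of most UMIs, 1.11 without mixed cells and 1.0 without both. The classical secretory list (-0.04) was 0.24, -0.17, 0.065, 0.37, 0.14 (mixed cells out) and 0.10 (both out), taken in that order where moved, and 0.15 at 20 UMIs, so it had no stable sign. The quiescence median (0.21) was -0.021 thinned. Of 96 called genes, 68 were past 1.5-fold in the same direction in every setting that gave them a value, but only 35 had a value with kept cells thinned before the rule, and of those 35, 23 were past it in all 10 settings. Reversed log2 ratios were Dio2 (0.31) and Igfbp6 (0.41) with at least 4 markers, Ptgs2 (1.78) at 1000 genes and 5% mitochondrial UMIs, Il6 (0.63 without mixed cells, 0.51 without both) and Pdgfa (0.22, 0.15, 0.047 and 0.0021 without cells of high UMIs, without the cell of most UMIs, without both kinds and as a mean over cells). The cause was not tested.

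Of the called genes 44.2% were higher, 51.5% when scaled by the median gene ratio and 49.5% as a mean over cells. The settings without the cells that stand apart were chosen after seeing the data. No paired analysis was possible because each group has 1 library. Depth limits genes near the minimum of 50 UMIs, where few cells decide a ratio, and nothing here measures the spread between mice.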

Other observations

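Cells that held both Pax7 and Calcr after thinning to 2000 UMIs were rare in the DMSO library, 1 of 118 (0.847%), and made up 26 of 204 MVC MuSCs (12.7%). Both genes chose the cells, so this is a description with no test. Among all pairs of the 8 rule genes, this pair differed most between the libraries. Pax7 and Asb5 hardly differed (17.8% of DMSO and 18.6% of MVC MuSCs), and Myod1 and Cdh15 differed in the other direction (14.4% and 5.39%). Of 22 measured chemokine and cytokine receptors, 5 were lower in the MVC library and 1 (Ifngr1) was higher, with a median log2 ratio of 0.03. The interleukin-4 receptor chain Il4ra gave 44.6 against 24.7 CPM, a ratio of 0.553 (0.349 to 0.874). Il1rap, the accessory chain of the interleukin-1 receptor, gave 44.6 against 26.0 CPM, a ratio of 0.582 (0.370 to 0.914), and the TNF receptor gene Tnfrsf1b gave 28.4 against 16.2 CPM, a ratio of 0.572 (0.320 to 1.02).

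The ATF4 response, which adjusts amino acid supply under stress, gave 1 higher and 2 lower of 10 genes. Vldlr, a lipoprotein receptor, was higher at 11.2 against 32.5 CPM, a ratio of 2.91 (1.5 to 6.20). Psat1, of serine synthesis, was lower at 33.5 against 15.6 CPM, a ratio of 0.466 (0.263 to 0.812), and Chac1, which degrades glutathione, was lower at 42.6 against 26.0 CPM, a ratio of 0.610 (0.385 to 0.964). Of 6 measured MHC class I pathway genes 2 were higher, the regulator Nlrc5 at 16.2 against 31.2 CPM, a ratio of 1.92 (1.07 to 3.62), and the peptide transporter chain Tap2 at 18.3 against 28.6 CPM, a ratio of 1.57 (0.886 to 2.88).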
